A study of Mus musculus with 3 samples.

Results

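The Notch genes described here are 10 of the 17633 genes with at least 1 read in any germ layer of the E7.5 mouse embryo. They were chosen by symbol, as the ligands *Dll1*, *Dll3* and *Jag1*, the receptors *Notch1*, *Notch2* and *Notch3*, the receptor-modifying enzyme *Lfng*, and the target genes *Hes1*, *Hes7* and *Hey1*. All 10 were listed in each of the 3 libraries and reached RPKM>5 in at least 1 of them. Endoderm, mesoderm and epiblast of ICR embryos were separated by enzyme treatment and hand dissection, without any genetic change or drug. The epiblast sample holds the neuroectoderm and the primitive streak. RNA pooled over many embryos gave 1 library for each germ layer, so no difference below has a replicate check.

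Notch signalling passes between cells that touch. A ligand of the Delta or Jagged family on one cell binds a Notch receptor on its neighbour, the receptor is cut first by an ADAM protease and then by gamma-secretase, and the freed intracellular domain joins the DNA-binding protein RBPJ to switch on genes of the *Hes* and *Hey* families, which encode transcriptional repressors. Fringe enzymes such as LFNG add sugars to the receptor and change how it answers the different ligands. In the mouse embryo the pathway is best known for segmentation of the paraxial mesoderm, where *Lfng*, *Hes7* and *Dll1* belong to an oscillating clock, and for keeping neural progenitors undifferentiated.

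Reads counted on genes came to 41.7 M for endoderm, 40.8 M for mesoderm and 42.7 M for epiblast. RPKM scales the reads to gene length and to these totals, so levels can be set side by side between libraries and, less surely, between genes. Ratios between genes take the listed length as exact and keep any reads that come from overlapping genes. A gene was called different between 2 libraries when RPKM was above 5 in either, the fold exceeded 2 and the FDR of the exact test of Audic and Claverie lay below 0.001. That test includes counting noise alone and so sets one library against another rather than one condition against another. Each fold is followed by its 95% exact binomial (Clopper-Pearson) interval, which covers counting error only. In bulk RNA, fewer cells of a type and less RNA per cell cannot be told apart. All 8 endoderm markers examined (*Sox17*, *Foxa2*, *Afp* and others) had their highest RPKM in endoderm and all 8 mesoderm markers (*Kdr*, *Hand1*, *Foxf1* and others) in mesoderm, whereas 7 of 8 epiblast markers were highest in epiblast, with *Fgf5* at 6.64 RPKM in endoderm against 6.32 in epiblast.

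The comparisons below share libraries and are not independent. *Notch1*, *Notch3*, *Dll1*, *Dll3* and *Lfng* were lowest in endoderm and highest in mesoderm, and the other 5 of the 10 genes followed other orders. Between endoderm and mesoderm, 6 of the 10 were called higher in mesoderm (*Dll1*, *Dll3*, *Lfng*, *Hes7*, *Notch1* and *Jag1*), where 8.56% of the 8867 genes with RPKM>5 in either library were called in that direction. None of the 10 was called higher in endoderm, the direction taken by 14.4% of those genes. Between endoderm and epiblast, 5 were called higher in epiblast (*Dll1*, *Lfng*, *Hes7*, *Dll3* and *Notch1*) against 8.94% of 8843 genes, and 1, *Hes1*, higher in endoderm against 15.7%. Between mesoderm and epiblast, 4 were called higher in mesoderm (*Jag1*, *Dll3*, *Notch1* and *Hes1*) against 5.3% of 8340 genes, and 0 higher in epiblast against 5.02%. As a median, the log2 ratio of endoderm to mesoderm was -1.83 over the 10 genes and -0.10 over all genes with RPKM>5. For endoderm to epiblast it was -1.21 over the 9 of the 10 with RPKM>5 in either library, against -0.08. For mesoderm to epiblast it was 0.73, against 0.02. *Notch2*, *Notch3* and *Hey1* were not called in any pair, and *Notch1* and *Dll3* were called in all 3.

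These calls rest on counting noise. When edgeR's exact test was given a biological coefficient of variation of 0.4, which was assumed and not measured, it called 0 of the 10 genes in any pair, with 5, 4 and 1 genes at an unadjusted p below 0.05 in the 3 pairs in the order above. With an assumed coefficient of 0.2 the calls were 5, 4 and 1.

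**Figure D1:**
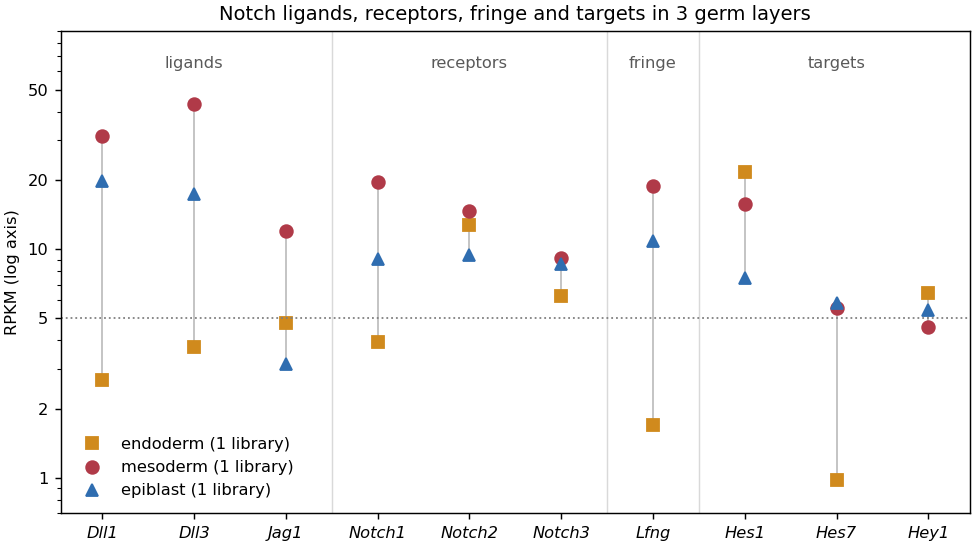
RPKM (log axis) of each ligand, receptor, fringe and target gene in the endoderm (squares), mesoderm (circles) and epiblast (triangles) library, 1 library each, with the RPKM of 5 used for calls as a dotted line. *Dll1*, *Dll3*, *Notch1* and *Lfng* run from endoderm at the bottom to mesoderm at the top, whereas *Hes1* is highest in endoderm at 21.9.

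Among the ligands, *Dll1* (chromosome 17, 15367354 to 15376872, minus strand, positions here and below on GRCm38), which activates Notch on neighbouring cells, was read 383 times in endoderm, 4422 times in mesoderm and 2926 times in epiblast. These reads gave RPKM values of 2.67, 31.4 and 19.9 in that order. Mesoderm was 11.8-fold above endoderm (10.6 to 13.1) and epiblast 7.45-fold above endoderm (6.70 to 8.31), so the endoderm library stood well apart from the others. Mesoderm exceeded epiblast by 1.58-fold (1.51 to 1.66), which is outside counting error but under the fold required for a call.

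*Dll3* (chromosome 7, 28293553 to 28302238, minus strand) encodes a divergent Delta protein that acts within the cell that makes it and is needed for somite formation. Its reads numbered 337 in endoderm, 3832 in mesoderm and 1616 in epiblast, for an RPKM of 3.74, 43.4 and 17.5. The mesoderm value was the highest RPKM of any of the 10 genes in any library. It lay 11.6-fold above endoderm (10.4 to 13.0) and 2.48-fold above epiblast (2.34 to 2.63), and epiblast lay 4.68-fold above endoderm (4.16 to 5.28). All 3 pairs were called.

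*Jag1* (chromosome 2, 137081456 to 137116644, minus strand), a Jagged ligand with known roles in vessels and the heart, followed a different order. Read counts of 1090 (endoderm), 2690 (mesoderm) and 740 (epiblast) gave RPKM values of 4.76, 12.0 and 3.15. Mesoderm was again highest, at 2.52-fold above endoderm (2.34 to 2.70) and 3.80-fold above epiblast (3.50 to 4.13). Epiblast was the lowest library for *Jag1*, 1.51-fold below endoderm (1.37 to 1.66), and neither of these 2 libraries reached RPKM>5. Of the 3 ligands, *Jag1* alone was lower in epiblast than in endoderm.

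The receptor *Notch1* (chromosome 2, 26457903 to 26516663, minus strand) was counted at 1547 reads (endoderm), 7650 (mesoderm) and 3665 (epiblast). Its RPKM of 3.91, 19.7 and 9.04 placed the 3 libraries at clearly separate levels. Mesoderm was 5.04-fold above endoderm (4.77 to 5.33) and 2.18-fold above epiblast (2.10 to 2.27), and epiblast was 2.31-fold above endoderm (2.18 to 2.45).

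*Notch2* (chromosome 3, 98013527 to 98150361, plus strand) was far more even, with 5567, 6301 and 4221 reads and RPKM values of 12.7 (endoderm), 14.7 (mesoderm) and 9.41 (epiblast). No pair differed by more than 1.56-fold, the ratio of mesoderm to epiblast (1.501 to 1.623). *Notch3* (chromosome 17, 32120820 to 32166852, minus strand) had 2071, 2978 and 2926 reads and an RPKM of 6.26, 9.18 and 8.63. Its largest difference was 1.47-fold (1.39 to 1.55), between mesoderm and endoderm, and mesoderm and epiblast were near each other at 1.06-fold (1.01 to 1.12). *Notch4*, the receptor known from endothelium, had 92, 155 and 214 reads and stayed below an RPKM of 1 in every library.

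The leading receptor therefore changed with the library. In endoderm *Notch2* was 3.25 times as high as *Notch1* per length (3.07 to 3.44), and *Notch1* was the lowest of the 3 receptors. In mesoderm *Notch1* led, at 1.34 times *Notch2* (1.30 to 1.39) and 2.15 times *Notch3* (2.06 to 2.24). In epiblast *Notch1* could not be told from *Notch2* (ratio of *Notch2* to *Notch1* 1.04, 0.996 to 1.09) or from *Notch3* (ratio of *Notch1* to *Notch3* 1.05, 0.998 to 1.10) within counting error. Of the summed RPKM of the 4 receptors, *Notch1* made up 16.8% (endoderm), 44.7% (mesoderm) and 32.5% (epiblast), and *Notch2* 54.8%, 33.3% and 33.8%.

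The ligands shifted in the same way. Summed over *Dll1*, *Dll3*, *Dll4*, *Jag1* and *Jag2*, RPKM came to 11.9 (endoderm), 87.6 (mesoderm) and 42.2 (epiblast), whereas the summed receptors were 23.2, 44.2 and 27.8. In endoderm *Jag1* was the highest ligand with 40.1% of the sum, 1.78 times *Dll1* (1.59 to 2.01). In mesoderm *Dll3* led with 49.5%, 1.38 times *Dll1* (1.32 to 1.44). In epiblast *Dll1* led with 47.1%, 1.14 times *Dll3* (1.07 to 1.21), and *Jag1* held 7.47%.

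**Figure D2:**
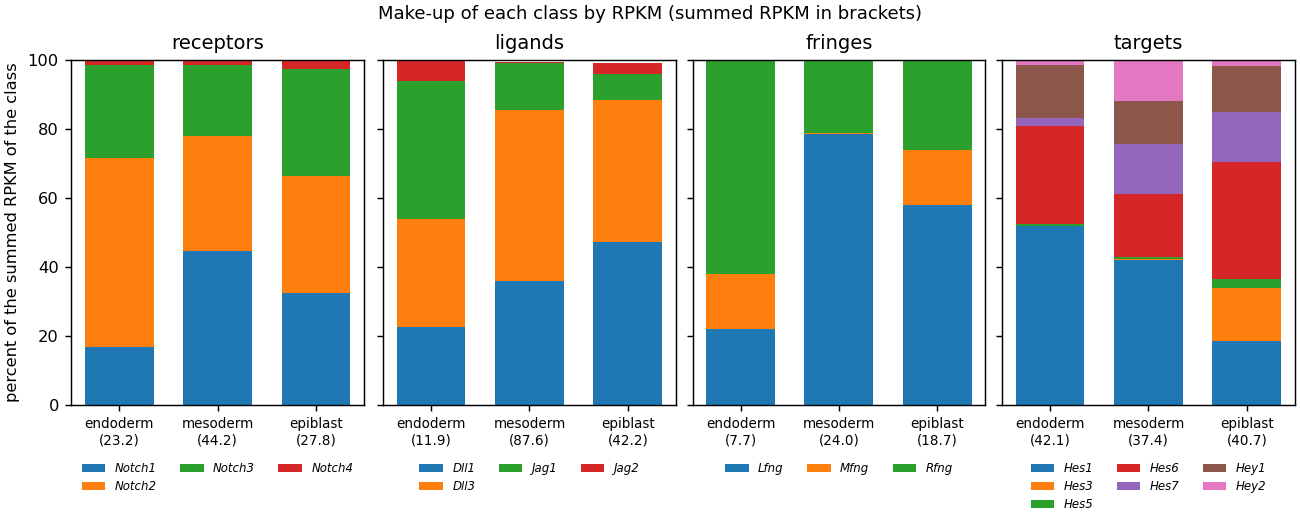
Share of each gene in the summed RPKM of its class (percent, bars from 0 to 100) in the 3 libraries, with the summed RPKM in brackets; genes that stay under 1% of a class are left out. *Notch2*, *Jag1* and *Rfng* take the largest share of their class in endoderm, and *Notch1*, *Dll3* and *Lfng* in mesoderm.

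*Lfng* (chromosome 5, 140607320 to 140615545, plus strand), the fringe enzyme of the segmentation clock, was read 163 times in endoderm, 1770 times in mesoderm and 1064 times in epiblast. RPKM was 1.70, 18.8 and 10.8, so that mesoderm lay 11.1-fold above endoderm (9.43 to 13.1) and epiblast 6.37-fold above it (5.39 to 7.55). Mesoderm and epiblast differed by 1.74-fold (1.61 to 1.88), which was not called. Of the other fringe genes, *Rfng* was level across the libraries at 4.79, 5.09 and 4.89 RPKM. *Mfng*, given after its values were seen, had reads of 93 (endoderm), 6 (mesoderm) and 233 (epiblast), the reverse of *Lfng* with respect to mesoderm, at an RPKM no higher than 2.97. The share of *Lfng* in the summed fringe RPKM was thus 22.1% (endoderm), 78.5% (mesoderm) and 58.0% (epiblast).

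The 3 target genes did not move together. *Hes7* (chromosome 11, 69120404 to 69124055, plus strand), the clock repressor, had 39 reads in endoderm (exact Poisson interval 27.7 to 53.3), 218 in mesoderm and 240 in epiblast, and was the lowest of the 10 genes in endoderm. Its RPKM was 0.971, 5.54 and 5.83, just above the required 5 in the higher libraries. Mesoderm lay 5.70-fold above endoderm (4.04 to 8.23) and epiblast 6.002-fold above it (4.27 to 8.65). Mesoderm and epiblast could not be told apart within counting error (1.05-fold, 0.873 to 1.27).

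*Hes1* (chromosome 16, 30064384 to 30067796, plus strand), a widely used Notch target that other signals can also induce, ran the other way. Read counts of 1354 (endoderm), 956 (mesoderm) and 477 (epiblast) gave an RPKM of 21.9, 15.7 and 7.51. Endoderm was 1.39-fold above mesoderm (1.28 to 1.51), short of a call, and 2.91-fold above epiblast (2.62 to 3.24), a called difference. Mesoderm was 2.10-fold above epiblast (1.88 to 2.34). This call was lost when 1 was added to each RPKM, which gave a log2 ratio of 0.98. *Hes1* was the highest of the 10 genes in the endoderm library, in which *Dll1*, *Lfng* and *Hes7* were the lowest 3.

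*Hey1* (chromosome 3, 8663359 to 8667256, minus strand), a Hairy-related repressor, had 596, 414 and 511 reads, equal to 6.46 RPKM (endoderm), 4.58 (mesoderm) and 5.40 (epiblast). The largest difference was 1.41-fold (1.24 to 1.60), between endoderm and mesoderm. *Hes1* was 3.38 times as high as *Hey1* in endoderm (3.07 to 3.73), 3.44 times in mesoderm (3.06 to 3.87) and 1.39 times in epiblast (1.22 to 1.58). *Hes1* exceeded *Hes7* by 22.5 times in endoderm (16.4 to 31.8) but by 1.29 times in epiblast (1.10 to 1.51).

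**Figure D3:**
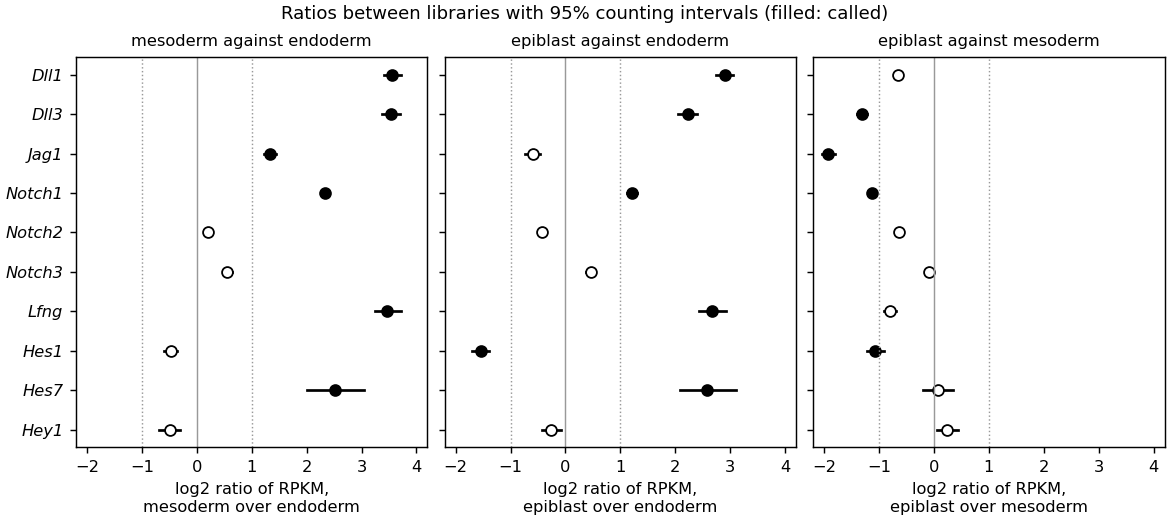
Log2 ratio of RPKM between 2 libraries for each gene, with 95% counting intervals as bars, filled circles for called differences and dotted lines at a fold of 2. In both panels against endoderm, *Dll1*, *Dll3*, *Lfng*, *Hes7* and *Notch1* lie on the right with filled circles, whereas *Hes1* lies on the left. The panels share libraries and are not independent.

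*Dll1*, *Lfng* and *Hes7* were all called in both comparisons with endoderm and in neither direction between mesoderm and epiblast, and their promoters are shown to let the letters be compared. The stretches come from the 250 bases upstream of a RefSeq start on GRCm38.p6, are written 5′ to 3′ on the strand of the gene, and stop before the first exon of the gene in GENCODE M21. *Dll1* is shown at its more upstream start, chr17:15376933-15377182 (minus strand), *Hes7* at chr11:69120203-69120403 (plus strand) and *Lfng* at chr5:140607091-140607319 (plus strand). Capitals mark matches on either strand to TGGGAA (the core of the RBPJ motif), CACGTG (the E-box) or CACNAG (the N-box bound by Hes proteins).
Dll1: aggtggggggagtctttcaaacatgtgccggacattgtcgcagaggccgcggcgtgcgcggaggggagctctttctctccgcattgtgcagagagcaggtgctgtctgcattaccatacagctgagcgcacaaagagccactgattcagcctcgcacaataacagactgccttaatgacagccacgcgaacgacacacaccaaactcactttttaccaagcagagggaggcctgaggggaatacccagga
Hes7: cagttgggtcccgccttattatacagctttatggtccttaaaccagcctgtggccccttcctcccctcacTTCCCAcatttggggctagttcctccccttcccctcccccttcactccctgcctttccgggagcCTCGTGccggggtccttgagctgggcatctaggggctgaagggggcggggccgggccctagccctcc
Lfng: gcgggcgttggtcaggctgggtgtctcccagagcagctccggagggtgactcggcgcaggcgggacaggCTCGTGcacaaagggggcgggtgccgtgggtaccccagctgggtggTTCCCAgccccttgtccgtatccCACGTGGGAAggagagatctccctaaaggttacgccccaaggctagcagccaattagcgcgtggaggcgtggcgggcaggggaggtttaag

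The *Lfng* window held 2 matches to the RBPJ core, beginning 135 and 108 bases before the start. The second one overlaps the E-box, which begins at 112, by 2 bases. It also held an N-box match at 181. *Hes7* held 1 RBPJ core match at 180 and 1 N-box match at 116, and neither of the *Dll1* windows held any of the motifs searched. Among 32851 promoter windows of 250 bases, 21.6% held the RBPJ core, 6.02% the E-box, 36.7% the N-box and 3.33% the T-box motif GGTGTGA, which was found in none of the windows of these genes. Of the 10 genes, 8 had a window, which was searched over its full 250 bases also where fewer are printed. The RBPJ core was present for *Lfng* and *Hes7* among them, and an excess over the 21.6% of all windows was not tested. N-box matches were not particular to these genes, as *Notch1* (at 108), *Notch2* (at 247) and *Notch3* (at 204 and 159) also held them. A match is a description of the letters and not a site shown to be bound.

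For each called gene, the genes with the most similar pattern over the 3 libraries were found among 9120 of the 9135 genes with RPKM>5 in any of them. The measure was the distance between log2(RPKM+1) values centred on the mean of each gene. With 3 libraries such likeness describes a profile and nothing more. *Dll1* was nearest to *Wnt2b* (distance 0.0105), at 0.564, 12.7 and 7.88 RPKM in endoderm, mesoderm and epiblast, then *Rasl11a* and *Tceal6*. *Dll3* was nearest to *Rspo3* (0.147), a Wnt agonist, at 3.07, 36.1 and 12.9 RPKM, then to *Snai1* (0.157), a driver of the epithelial to mesenchymal transition, and *Pdlim4*. *Lfng* was nearest to *Kctd15* (0.0888), *Fads2* and *Car3*, and *Notch1* to *Plekho1* (0.0221), *Cbln1* and *Tpd52l1*. *Jag1* was nearest to *Igfbpl1* (0.0446), *Il6st* and *Gadd45g*. *Hes1* was nearest to *Fam126a* (0.00826), *Smtn* and *Alg8*, and *Hes7* to *Odz3* (0.0140), *Thbs3* and *Rn4.5s*. Among the 10 genes themselves, *Dll1* and *Lfng* were the closest pair (0.275), followed by *Dll3* and *Lfng* (0.373).

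A wider list of 68 genes covered the rest of the pathway, and 48 of them had RPKM>5 in at least 1 library. Between endoderm and mesoderm 5 were called higher in endoderm and 7 in mesoderm, between endoderm and epiblast 5 in endoderm and 8 in epiblast, and between mesoderm and epiblast 5 in mesoderm and 4 in epiblast. The first split became 9 and 9 with RPKM>1, and the second became 8 and 7 with TMM or median of ratios scaling. The third became 4 and 5 with upper quartile scaling, so none of the splits gives a direction. The list medians of the log2 ratio were -0.20, -0.20 and 0.07 in the same order, beside -0.10, -0.08 and 0.02 for all genes with RPKM>5. In all, 18 of the 48 genes with RPKM>5 were called in some pair (37.5%), near the 31.5% of the 9135 such genes among all genes. Of the 10 genes above, 7 were.

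Of the 8 genes known to work with Notch in the presomitic mesoderm and its clock, 5 were called higher in mesoderm than in endoderm. The share was 8.56% among all genes with RPKM>5 in either library, and the shares below are taken in the same way. Against endoderm, 3 were called higher in epiblast, beside 8.94%, and 3 were called higher in mesoderm than in epiblast, beside 5.3%. *Mesp1*, a factor of nascent mesoderm, stood at 1.36 RPKM (endoderm), 50.5 (mesoderm) and 11.6 (epiblast). Its neighbour *Mesp2*, which sets somite boundaries, followed the same order with 22, 791 and 167 reads. *Tbx6*, an activator of *Dll1* in the presomitic mesoderm, had 3.77, 38.7 and 34.1, and *Msgn1* 2.79, 35.1 and 38.9, so that both were near level between mesoderm and epiblast (1.13-fold and 1.11-fold). *Ripply2*, a repressor partner of *Tbx6*, differed from both, with 12 reads for endoderm, 198 for mesoderm and 8 for epiblast. *Axin2*, *Nkd1* and *Dusp6*, which link the clock to Wnt and FGF signalling, were not called.

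**Figure D4:**
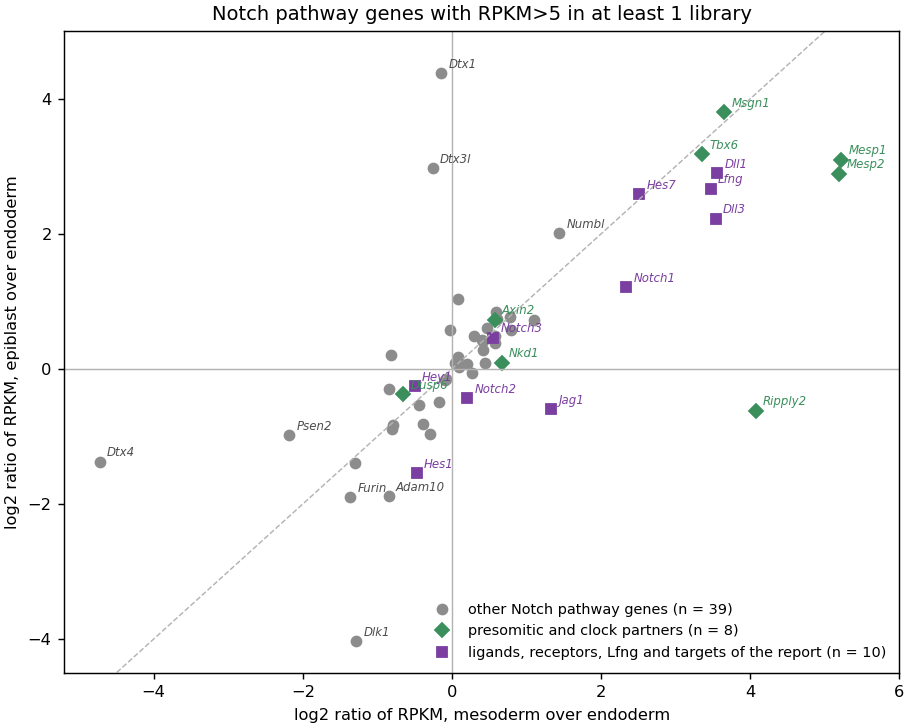
Log2 ratio of RPKM for mesoderm over endoderm (horizontal) and epiblast over endoderm (vertical) for pathway genes with RPKM>5 in at least 1 library, with equal ratios on the dashed line; *Hes3* is left out for having 3 reads or fewer in endoderm. Both axes use the same endoderm library. *Dll1*, *Dll3*, *Lfng* and *Hes7* lie at the upper right beside *Tbx6* and *Msgn1*, and *Dtx1* and *Dtx3l* lie high on the vertical axis alone.

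Of the 10 genes for the proteases that cut the receptor, 2 were called higher in endoderm than in mesoderm and 2 higher in endoderm than in epiblast, with 0 in the other direction in either pair. Of the 10, 8 had RPKM>5, and the shares of all such genes called higher in endoderm were 14.4% and 15.7%. In the remaining pair, *Adam10* was called higher in mesoderm than in epiblast (2.06-fold). *Furin*, which cleaves the Notch precursor during its maturation, reached 45.1 RPKM (endoderm), 17.5 (mesoderm) and 12.1 (epiblast), and *Adam10*, the protease that makes the ligand-induced cut, 30.8, 17.1 and 8.33. *Psen2*, a catalytic subunit of gamma-secretase, had 671, 145 and 348 reads. Of the 8 genes of the nuclear complex, 4 had RPKM>5 and 0 were called in any pair, where 31.5% of all genes with RPKM>5 were called in some pair. *Rbpj* itself had 15.5, 20.4 and 20.9 RPKM. Below the RPKM minimum, and named after its values were seen, *Kat2b*, an acetyltransferase, had 411 reads in endoderm and 42 in mesoderm, 9.60-fold apart (6.98 to 13.5). No gene was called among the 3 of 4 receptor-glycosylating enzymes and the 1 of 4 ligases for ligand uptake that reached RPKM>5. With so few genes, an absence of calls in these groups and the nuclear complex cannot be told from the share over all genes. In the repressor complex *Tle3* (26.3, 56.4 and 43.4) and *Tle4* (6.07, 6.40 and 12.5) were called in 1 pair each, out of 11 genes. They were 20% of the 10 with RPKM>5, beside the 31.5% over all genes.

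Of the 7 other genes listed as targets, 3 reached RPKM>5 in a library and each of these was called in some pair. A group of 3 is too small to set against the 31.5% of all such genes. Whether Notch drives the listed targets here was not tested. *Nrarp*, a feedback inhibitor induced by Notch, had reads of 1279 (endoderm), 509 (mesoderm) and 501 (epiblast), which made endoderm 2.46-fold above mesoderm and 2.62-fold above epiblast. *Nrarp* and *Hes1* were therefore both highest in the library in which *Dll1*, *Dll3*, *Notch1* and *Lfng* were lowest, as was *Hey1*. *Hes7*, *Hey2*, *Hes3* and *Hes5* went the other way, with their lowest RPKM in endoderm (39, 60, 2 and 8 reads). *Notch2* and *Jag1* were lowest in epiblast. Summed over the listed *Hes* and *Hey* genes, RPKM came to 42.1 (endoderm), 37.4 (mesoderm) and 40.7 (epiblast). *Hes3*, a repressor of early neural progenitors, had 2, 4 and 489 reads, and its epiblast level was 238 times that of endoderm (65.7 to 1975) and 117 times that of mesoderm (45.4 to 431). *Hes6*, an antagonist of *Hes1*, had an RPKM of 12.0, 6.84 and 13.8 and was called between mesoderm and epiblast at 2.02-fold. *Hey2*, named after its values were seen, had 60, 463 and 76 reads, which put mesoderm 7.87-fold above endoderm, but at an RPKM of 4.45 it did not meet the criteria.

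Of the 10 regulators of Notch turnover, all with RPKM>5 in a library, 4 were called in some pair. This share of 40% was near the 31.5% of all genes with RPKM>5, but some of the folds were among the largest of the list. *Dtx1*, a Deltex ligase that binds the Notch intracellular domain, stood at 0.452 RPKM (endoderm), 0.409 (mesoderm) and 9.40 (epiblast), and *Dtx3l* at 0.816, 0.680 and 6.38. *Dtx4* was high in endoderm (8.40), at 0.317 in mesoderm and 3.24 in epiblast, a 26.5-fold difference between endoderm and mesoderm. *Numbl*, a relative of the Notch inhibitor Numb, rose from 1.99 in endoderm to 5.38 in mesoderm and 8.01 in epiblast, whereas *Numb* itself (21.8, 12.7 and 12.2) was not called. Among ligands outside the main group, *Dlk1*, an atypical and imprinted one without the receptor-binding domain of Delta, fell from 23.7 RPKM in endoderm to 9.73 in mesoderm and 1.45 in epiblast and was called in all 3 pairs. *Dll4*, the Delta ligand of endothelium, had 2, 67 and 58 reads, and *Jag2* had 117, 59 and 226, with 1.31 as the highest RPKM of either gene in any library.

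Markers of other cells moved with some of these levels. All 6 node genes examined (*Noto*, *Foxj1*, *Nodal*, *Shh*, *Chrd* and *Dand5*) were highest in endoderm, with a summed RPKM of 86.4 there, 5.15 in mesoderm and 21.5 in epiblast and none at 0. Their part in the endoderm levels of *Hes1*, *Nrarp* and *Hey1* was not tested. All 8 endothelial genes were highest in mesoderm, with a summed RPKM of 14.9, 32.4 and 16.1. *Egfl7* made up 11.0, 21.7 and 15.1 of these sums and *Sox7* 3.29, 3.57 and 0.151. The other endothelial genes reached no more than 2.53 RPKM (*Pecam1* in mesoderm). Among them, *Emcn* had 0 reads in endoderm and epiblast and 4 in mesoderm, and *Tie1* had 0 in epiblast. The part of endothelial cells in the mesoderm levels of *Jag1*, *Notch1* and *Hey2* was not tested. Trophoblast genes summed to 55.3, 35.5 and 54.2 RPKM with *Tpbpa* and *Prl3d1* at 0 in every library. Of the 6 with reads, 4 were highest in epiblast, where *Cdx2* and *Eomes*, which the embryo also uses, made up 37.1 and 14.5 of the sum. The 2 highest in endoderm were *Plac1* (19.9, 6.25 and 0.569 RPKM) and *Esx1* (7.11, 0.0606 and 0.130). Erythroid genes summed to 3.75, 6.65 and 4.21 with *Hba-x* and *Hbb-y* at 0. Of the 4 with reads, *Hbb-bh1* (0, 37 and 0 reads) and *Klf1* (8, 29 and 16) were highest in mesoderm. *Gata1* was highest in endoderm (246, 184 and 51) and *Epor* in epiblast (27, 165 and 258). Decidual genes summed to 25.3, 14.7 and 2.07 with *Prl8a2* at 0. *Bmp2*, also an embryonic gene, made up 24.8, 13.0 and 0.489 of the decidual sums.

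Reads covered between 82.2% and 99.7% of the length of each of the 10 genes in each library. The counting is not stated to use strand, so reads cannot be split between overlapping genes. GENCODE M21 places exons of *A930024N18Rik* over those of *Dll1*, of *9130213A22Rik* over *Hes7*, of *0610009E02Rik* and *Gm13568* over *Notch1*, of *Gm17276* over *Notch3* and of *Gm42820* over *Notch2*. Exons of *Dll3*, *Jag1*, *Lfng*, *Hes1* and *Hey1* overlap those of no other gene. Among the wider genes, *Nrarp*, *Furin*, *Numbl* and *Dtx3l* share exon positions with *Gm38287*, *Gm44851*, *Gm44641* and *Parp9*.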

How the data were processed

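The authors made paired-end libraries with a BGI kit, sequenced them on an Illumina HiSeq system and counted uniquely mapped reads per gene, as the file headers name them, which were deposited as counts without normalization. The authors also deposited RPKM, the gene length and the coverage of that length in percent. Deposited RPKM equalled reads divided by length and by the total of counted reads, with a largest relative difference of 2.03e-07. TopHat is named for splicing and in the submitters' processing notes, which list both mm9 and mm10. The aligner and annotation of the gene table are not given in the sources used here.

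RPKM was used as deposited, and a gene missing from a table was set to 0 reads, a count that leaves room for 3. A ratio to a library with 1 to 3 reads is given with its counting interval, not as a lower bound. Genes were called with the criteria of the study (an FDR under 0.001, a Fold Change above 2 and an RPKM above 5) from the two-sided Audic and Claverie test with Benjamini-Hochberg adjustment over all genes with a read in either library. Named genes were the 10 Notch genes, the 18 genes of the wider list called in a pair (at most 25, largest fold first), and for each called Notch gene the 3 genes nearest in pattern; other paralogs and cell markers are named where described. The genes and lists were chosen with earlier results of these data known. On simulated libraries of 17633 genes for endoderm and mesoderm, 200 of 200 genes changed 4-fold were recovered, with 0 others. Of the unchanged genes, 6.22% had p below 0.05 in the same test. A 4-fold change lies well above the required fold of 2, so recovery of smaller changes was not tested. The simulation also cannot show how calls hold under variation between embryos, which 1 library per germ layer does not measure. Promoter sequences are from RefSeq (GRCm38.p6) and positions from GENCODE M21 of GRCm38. edgeR 4.0.16 ran in R 4.3.3, and all else in Python 3.11.15 with SciPy 1.17.1 and NumPy 2.4.6, pandas 2.3.3 for tables and matplotlib 3.10.9 for plots. Alternatives covered the scaling, the RPKM minimum, a pseudocount, the fold and the test.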

Additional observations from a re-analysis of the deposited data

How the results depend on the processing

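All ratios of the 10 Notch genes kept their direction with TMM, median of ratios and upper quartile scaling and with a pseudocount of 1, and the only call that changed among them was *Hes1* between mesoderm and epiblast with the pseudocount. TMM raised endoderm against mesoderm by 0.11 and against epiblast by 0.11 on the log2 scale, and the median of ratios did the same. Upper quartile scaling moved the endoderm to epiblast median by -0.13.

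Counts are given below for endoderm and mesoderm, endoderm and epiblast, and mesoderm and epiblast in turn. As reported, 2038, 2176 and 861 genes were called, with 12, 13 and 9 of the wider Notch list and 6, 6 and 4 of the 10 Notch genes. With RPKM>1 the genes were 3375, 3561 and 1841, and 15 of the wider list in the last pair. With no RPKM minimum they were 4676, 4854 and 2769, with 20, 22 and 19 of the wider list. With Fold Change>4 they were 936, 898 and 334, with 7 and 8 of the wider list in the first pairs and 0 of the 10 Notch genes between mesoderm and epiblast. edgeR's exact test with an assumed coefficient of variation of 0.4 left 387, 331 and 60 genes, 3, 3 and 2 of the wider list and 0, 0 and 0 of the 10. With a coefficient of 0.2, chosen after seeing the data, 1199, 1235 and 443 genes, 7 of the wider list in the first pair and 1 of the 10 Notch genes in the last pair were called. No coefficient can be estimated from 1 library per germ layer, and no library could be left out. Calls of all genes between mesoderm and epiblast, 442 higher in mesoderm and 419 in epiblast, became 417 and 464 with upper quartile scaling. Depth limits *Hes7* in endoderm and *Hes3*, *Dll4* and *Emcn*, which rest on few reads. No paired analysis was possible because each germ layer has 1 library.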
